A study of Mus musculus with 6 samples.

Results

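Lymphocytes and plasma cells are a small share of the cells in a mouse liver, and 9 genes that mark them were followed here across 6 liver arrays. The genes are Ighm, Jchain, Ms4a1, Cd79a and Cd79b, which mark B cells and plasma cells, and Cd3e, Cd8a, Nkg7 and Gzma, which mark T cells and natural killer cells. Each gene was taken by its listed symbol in the array's annotation, keeping the probe set with the highest mean over the 6 arrays where a gene had several. All 9 were found, each with 1 probe set that lists no other gene, among 65956 probe sets and 30702 genes with a single name. Their values are the authors' log2 signals, so a difference of 1 is a doubling if the base is 2, as the range of the values has it. Another 4 probe sets list Ighm together with a second gene and were left unnamed. One of them, listed with Ighv2-6, is brighter on average than the Ighm probe set used, so a rule that admits shared probe sets would take it for Ighm. Its difference between the groups was -0.02, where the probe set used gave -1.02.

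The study profiled total liver RNA of male mice aged 8 weeks, with 1 array per sample. The 3 arrays titled HFD-inulin came from offspring of mothers given inulin, a fermentable plant fibre. The 3 arrays titled HFD came from offspring of mothers on a high-fat diet (HFD). Both titles name HFD, so whether the inulin mothers also ate the high-fat diet is taken from the title alone. The offspring's own diet, the strain and the genotype are not stated by the labels. Whether the mice of a group had separate mothers is also unstated, so p-values measure only the spread between these arrays.

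B cells carry an antigen receptor made of an immunoglobulin and a signalling pair, CD79A and CD79B. For each chain of that immunoglobulin, a developing B cell joins a variable (V) segment through short stretches to a constant region. The transcript level of a functional V segment, unlike that of a pseudogene, can thus reflect the B cells and plasma cells that chose it. Plasma cells, the end stage of the lineage, secrete the immunoglobulin, and the J chain links IgM and IgA into larger assemblies. T cells recognise antigen through a receptor held by the CD3 chains, and cytotoxic T cells and natural killer cells, which are abundant among liver lymphocytes, store granzymes in granules.

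The 250 bases before the start of 3 members are shown, chosen among the 6 members with a listed promoter: Jchain had the largest spread after Ighm, Cd79a belongs to the B cell receptor, and Nkg7 was the member whose groups did not overlap. The sequences are RefSeq's, on GRCm38.p6, at chr5:88527898-88528147 on the minus strand for Jchain, chr7:24897247-24897496 on the plus strand for Cd79a and chr7:43436888-43437137 on the plus strand for Nkg7. Capitals mark letters that match one of the motifs searched.
Jchain: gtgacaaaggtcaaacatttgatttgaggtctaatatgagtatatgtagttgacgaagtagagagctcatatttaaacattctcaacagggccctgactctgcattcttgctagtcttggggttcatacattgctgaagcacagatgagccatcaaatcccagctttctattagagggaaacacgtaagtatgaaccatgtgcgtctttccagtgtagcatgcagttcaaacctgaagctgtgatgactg
Cd79a: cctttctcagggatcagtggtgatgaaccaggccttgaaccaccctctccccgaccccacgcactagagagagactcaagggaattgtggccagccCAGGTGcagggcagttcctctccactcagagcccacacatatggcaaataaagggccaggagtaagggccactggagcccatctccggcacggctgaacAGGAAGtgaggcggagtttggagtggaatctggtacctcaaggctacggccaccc
Nkg7: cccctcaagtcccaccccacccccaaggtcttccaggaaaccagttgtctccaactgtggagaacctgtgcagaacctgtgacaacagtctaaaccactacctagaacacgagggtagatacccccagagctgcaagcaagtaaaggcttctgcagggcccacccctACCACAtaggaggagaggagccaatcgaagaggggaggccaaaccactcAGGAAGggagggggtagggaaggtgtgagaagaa

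No promoter was listed for Ighm, Ms4a1 and Cd79b, so no motif was searched there. A set of 6 motifs was searched on both strands, and promoters were listed for 6 of the 9 members. An ETS core, AGGAAG, lay in 3 of them (Cd79a, Cd3e and Nkg7), against 29.5% of all 32851 promoters. An E-box, CACCTG, lay in 2 (Cd79a and Gzma), against 17.2%, and a RUNX core, TGTGGT, in 2 (Nkg7 and Gzma), against 14%. In Cd79a the E-box began 154 bases and the ETS core 55 bases before the start, and in Nkg7 the RUNX core began 83 bases and the ETS core 34 bases before it. The octamer ATGCAAAT, known from immunoglobulin promoters, the EBF core CCCNNGGGA and the GATA core AGATAA matched none of the 6. They match 1.6%, 5.6% and 9.99% of all promoters.

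The labelled tissue was checked with Alb, the hepatocyte gene of serum albumin, which lay between 11.37 and 11.58 in every array. The arrays also fell apart in a way that crosses the groups: those called low-signal below (HFD-inulin 1 and 2 with HFD 1) had means of 1.34 to 1.91 over 245 chromosome Y probe sets that share all 6 values with another. The high-signal arrays (HFD-inulin 3 with HFD 2 and 3) had means of 2.99 to 3.24 there. That split was found in the data, and the members' differences are also plotted within both parts. Hepatocyte, macrophage and other marker lists are given where their values bear on the members.

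None of the 9 genes passed the test between the groups, and 8 of 9 had a lower mean in HFD-inulin. The test was limma's, whose p-values were adjusted by Benjamini-Hochberg across the 65956 probe sets, with 0.05 as the threshold. It called 0% of all probe sets and 0 members, whose adjusted p ran from 0.902 to 0.962. Without adjustment, 0 members lay under 0.05, against 5.15% of all probe sets. The median difference of the members was -0.11, where all probe sets had a median of -0.02 and 56.5% of them a lower mean in HFD-inulin. With each array's median subtracted, the members' median was -0.08. In bulk tissue, fewer cells of a type and less RNA per cell cannot be told apart.

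Ighm, the constant region of the IgM heavy chain, varied most of the 9. The HFD-inulin arrays, in the order 1, 2, 3, measured 2.07, 2.28 and 2.94, and the HFD arrays in the same order 3.29, 2.70 and 4.37. All values below follow that order, HFD-inulin first. HFD array 3 was the highest and HFD-inulin arrays 1 and 2 the lowest, while HFD-inulin array 3 lay above HFD array 2, so the groups overlapped. The HFD-inulin mean was 2.43 ± 0.45 (SD, n = 3) and the HFD mean 3.45 ± 0.85, a difference of -1.02 (SE 0.43, 95% interval -2.06 to 0.02, limma adjusted p = 0.902). Its exact two-sided permutation p over the arrays was 0.2, and 0.1 is the smallest that 3 arrays against 3 allow. The spread among the HFD arrays themselves, 1.67 from lowest to highest, exceeded that difference. Without HFD array 3 the difference was -0.56 (SE 0.31), and it was -1.11 within the low-signal and -0.59 within the high-signal arrays.

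**Figure D1:**
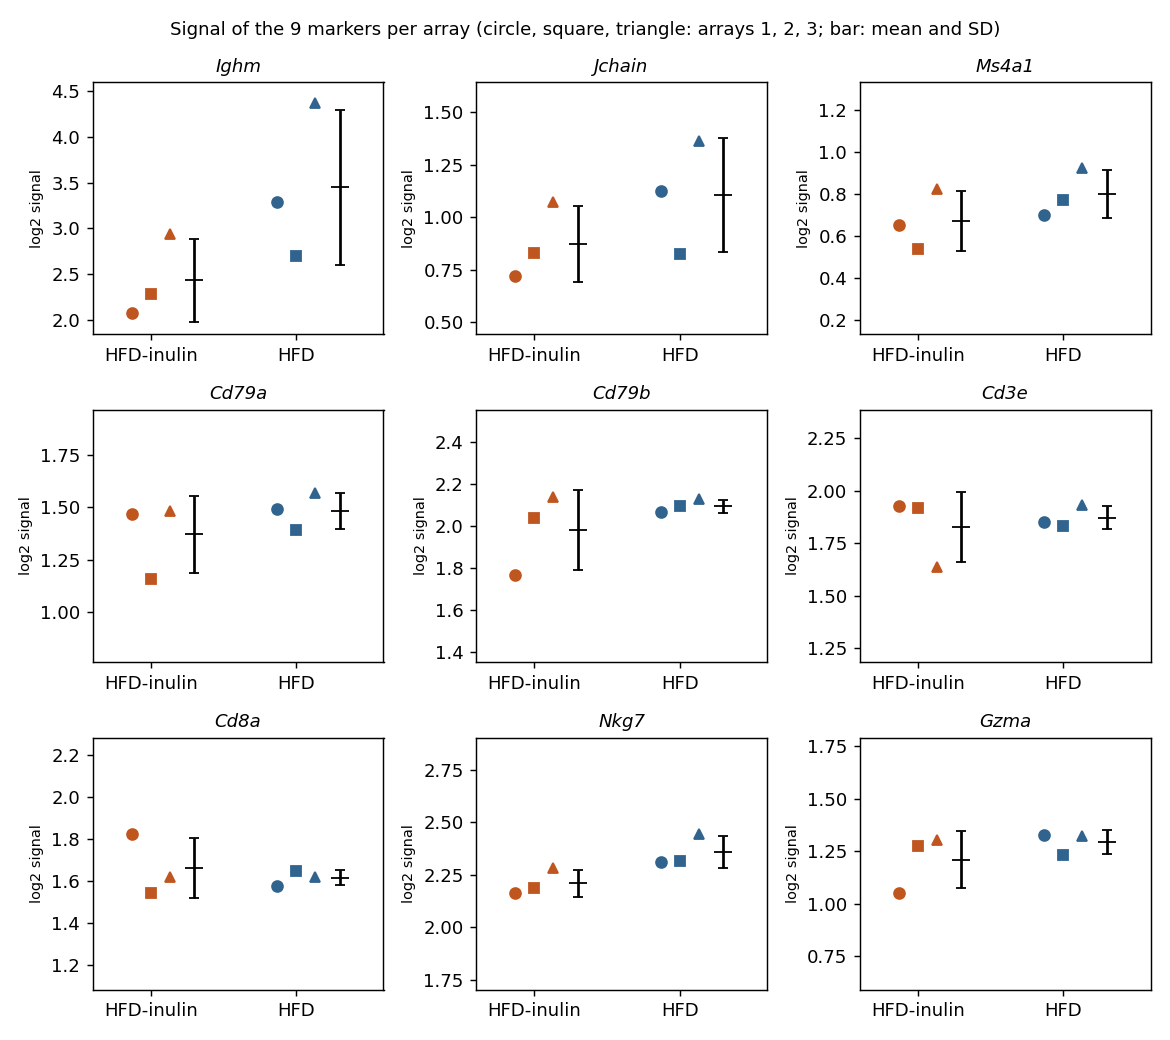
Log2 signal (vertical axes) of the 9 markers in HFD-inulin (orange) and HFD (blue) arrays, where circles, squares and triangles are arrays 1, 2 and 3 and the bars give the mean and SD (n = 3). Each panel has its own axis; Ighm spans 2.29 over the 6 arrays and no other member more than 0.65.

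Jchain, which encodes the chain that joins secreted IgM and IgA, showed the next largest spread. Its log2 signal in the same order was 0.72, 0.83 and 1.07 against 1.13, 0.83 and 1.36. As for Ighm, HFD array 3 was the highest, HFD array 2 the lowest of its group, and HFD-inulin arrays 1 and 2 low. The difference was -0.23 (SE 0.16, limma adjusted p = 0.905), and -0.10 without HFD array 3. It was -0.35 within the low-signal and -0.02 within the high-signal arrays. The mean over 6 arrays, 0.99, lies below that of the median probe set, 1.22, where there is little signal over background.

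Ms4a1, the gene of the B cell surface protein CD20, was the dimmest in relation to that level. It measured 0.65, 0.54 and 0.82 in HFD-inulin arrays and 0.70, 0.77 and 0.92 in HFD arrays. The highest value again stood in HFD array 3 and the groups overlapped, with a difference of -0.13 (SE 0.10, limma adjusted p = 0.911). Without HFD array 3 it was -0.07. Ms4a1 and Jchain were the 2 members below the median probe set, and Ighm was the 1 member above the 75th percentile of probe set means, 2.57.

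Cd79a and Cd79b encode the signalling pair of the B cell receptor. Cd79a measured 1.47, 1.16 and 1.48 against 1.49, 1.39 and 1.57. One low value, in HFD-inulin array 2, set most of its difference of -0.11 (SE 0.11, limma adjusted p = 0.923), which was -0.01 without that array. Cd79b measured 1.77, 2.04 and 2.14 against 2.07, 2.09 and 2.13. Here a single low value stood in HFD-inulin array 1, and the difference of -0.11 (SE 0.10, limma adjusted p = 0.922) was -0.01 without it. So the pair, whose products work together, took its low values from different arrays.

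Cd3e, a chain of the T cell receptor complex, measured 1.93, 1.92 and 1.64 against 1.85, 1.83 and 1.93. HFD-inulin array 3 was the low one, and the others lay close together. Its difference of -0.04 (SE 0.10, limma adjusted p = 0.962) became 0.05 without HFD-inulin array 3. Cd8a, the coreceptor of cytotoxic T cells, was the member with a higher mean in HFD-inulin. It measured 1.82, 1.54 and 1.62 against 1.58, 1.65 and 1.62, a difference of 0.05 (SE 0.09, limma adjusted p = 0.956). HFD-inulin array 1 alone was high, and without it the difference was -0.03.

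Nkg7, a granule membrane protein of natural killer and cytotoxic T cells, had groups that did not overlap. It measured 2.16, 2.19 and 2.28 against 2.31, 2.32 and 2.45. All HFD-inulin arrays were below all HFD arrays, with HFD-inulin array 3 the nearest to them. The difference was -0.15 (SE 0.07, 95% interval -0.32 to 0.02, limma adjusted p = 0.902), with an exact permutation p of 0.1. Groups failed to overlap in 1 of the 9 members and in 10.3% of all probe sets (6.02% lower and 4.32% higher in HFD-inulin), so the member count is near the background. The difference was -0.14 within the low-signal and -0.10 within the high-signal arrays.

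Gzma, the gene of the granule protease granzyme A, measured 1.05, 1.27 and 1.30 in HFD-inulin arrays and 1.33, 1.23 and 1.32 in HFD arrays. HFD-inulin array 1 was low and the other 5 lay close together. The difference was -0.08 (SE 0.09, limma adjusted p = 0.930), and less than 0.01 in size without that array. Apart from Ighm, the 95% intervals of the members ran from -0.61, for Jchain, to 0.25, for Cd8a. They are separate intervals on array signal, not adjusted for their number, and set no limit on differences in RNA.

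**Figure D2:**
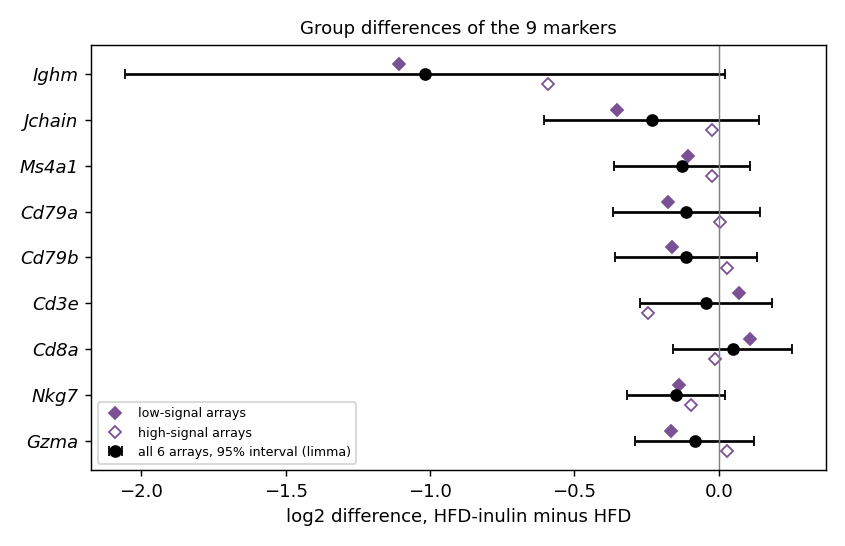
Log2 difference, HFD-inulin minus HFD (horizontal axis), of the 9 markers: black points and bars are the limma estimate over 6 arrays with its 95% interval, filled and open diamonds the difference within the low-signal and high-signal arrays. Every interval includes 0, and Ighm at -1.02 has the widest.

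Most members were highest in the same array. In all, 6 of the 9 were highest in HFD array 3 (Ighm, Jchain, Ms4a1, Cd79a, Cd3e and Nkg7), against 16.6% of all probe sets. Cd3e was so by less than 0.01 over HFD-inulin array 1. These were 4 of the 5 B and plasma cell members and 2 of the 4 T and cytotoxic members. In the further lists described below, the counts were 5 of 20 B cell, 4 of 12 plasma cell, 3 of 19 T cell and 3 of 21 natural killer and cytotoxic genes. Likewise 8 of the 9 were lowest in HFD-inulin array 1 or 2, against 43.5% of all probe sets. Both of those arrays are low-signal arrays, and the part of the split in this count was not tested. With the split as a block in the limma fit, 0 members had an unadjusted p under 0.05. In that fit the difference of Ighm was -0.85 (SE 0.43), smaller in size than without the block, and that of Cd3e was -0.09, larger in size. The sign of the difference was the same within the low-signal and within the high-signal arrays in 4 members, Ighm, Jchain, Ms4a1 and Nkg7.

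The genes closest to Ighm in pattern were immunoglobulin heavy chain V segments. Closeness was the root mean square difference over the 6 arrays of values centred on each gene's mean, searched over all 31258 probe sets with a single gene name. The nearest was Ighv1-2 (0.25), followed by Ighv1-74 (0.27) and Ighv1-69 (0.27), where Ighm's own SD over the arrays is 0.82. Of the 20 nearest probe sets, 13 (65%) were heavy chain V segments, which make up 0.374% of the named ones. The values were not scaled, and Ighm's SD exceeds that of 99.2% of probe sets, so only widely varying probe sets can lie near it. The share of V segments among equally variable probe sets was not measured. The values of V segments were not used in choosing the members.

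Ighv1-2, which RefSeq lists as a V segment pseudogene, measured 4.52, 4.25 and 5.51 against 5.69, 5.43 and 7.04. Ighv1-69 measured 1.76, 1.73 and 2.04 against 2.21, 1.75 and 3.86. In both, HFD array 3 stood more than 1 above every other array. Neither passed the test, with differences of -1.30 (SE 0.49) and -0.76 (SE 0.51) and a limma adjusted p of 0.902 and 0.905.

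The other nearest genes were less telling. Those of Jchain were Aldh1b1, a mitochondrial aldehyde dehydrogenase gene (0.05), the small nucleolar RNA Gm24334 (0.06) and Mir1964 (0.07), where Jchain's SD is 0.24. Those of Cd79a were Gm20161 (0.02), the pseudogene Gm12661 (0.03) and Gpr20, an orphan receptor gene (0.03), where its SD is 0.14. None of these 6 is a B cell marker by the lists used here.

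Since the nearest genes of Ighm were V segments, all named V segment probe sets were then described, a choice made after values were seen. Of 117 heavy chain V segments, 103 (88%) had a lower mean in HFD-inulin, with a median difference of -0.20, against 56.5% and -0.02 over all probe sets. Of the 117, 78 (66.7%) were highest in HFD array 3. The 117 include the 13 segments nearest to Ighm, which led to the choice of the family. Part of these counts therefore follows from that choice, and counts without the 13 were not made. The mean over the segments, relative to the HFD mean, stood at -0.29, -0.32 and -0.12 for the 3 HFD-inulin arrays. For the 3 HFD arrays it stood at -0.12, -0.13 and 0.26, so HFD-inulin array 3 was level with HFD arrays 1 and 2. Without HFD array 3 the median difference was -0.09, and it was -0.16 both within the low-signal and within the high-signal arrays. Only 52 of the 117 reached the level of the median probe set, so most lay where there is little signal over background.

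No V segment passed the adjusted test. In heavy chain segments, 8 of 117 (6.84%) had an unadjusted p under 0.05 and a lower mean in HFD-inulin, against 2.64% of all probe sets, and 0 a higher one. Groups that did not overlap, lower in HFD-inulin, were found in 14 (12%), against 6.02%. For T cell receptor segments these shares were 5.88% and 8.4%, and for kappa segments 3.49% and 6.98%. Lower calls above the background were thus not particular to heavy chain segments. In each of these families 0 segments were higher by either measure. The heavy chain segments resemble one another in sequence and 2 share all their values with another probe set, so they are not separate observations, and probe sharing was not tested.

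Kappa light chain V segments followed HFD array 3 to a smaller extent. Of 86, 64 (74.4%) had a lower mean in HFD-inulin, 35 (40.7%) were highest in HFD array 3, and the median difference was -0.09. Without HFD array 3 that median was -0.01, and it was -0.03 within the low-signal and -0.07 within the high-signal arrays. Of the 86, 27 reached the median probe set. V segments of the T cell receptor served as the counterpart for T cells. Of 119, 83 (69.7%) were lower, 36 (30.3%) were highest in HFD array 3, and the median difference was -0.05, which turned to 0.01 within the low-signal arrays. Over all probe sets, 56.5% were lower and 16.6% were highest in HFD array 3. With each array's median subtracted, the median difference was -0.16 for heavy chain, -0.06 for kappa and -0.02 for T cell receptor segments. Of the 119, 52 reached the median probe set. The differences between the 3 families were not tested.

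Within HFD array 3 a few segments stood far above the rest. Igkv3-2, a kappa segment, measured 5.32 there, which is 2.32 above HFD array 1, the next highest. In HFD-inulin arrays 1 to 3 it measured 1.32, 2.05 and 1.96. Ighv1-53 measured 4.28 in HFD array 3 and 1.09 to 1.62 in the other 5 arrays. In 8 heavy chain and 4 kappa segments, and in 0 of the T cell receptor segments, HFD array 3 exceeded both other HFD arrays by more than 1. The 8 are Ighv1-53, Ighv1-55, Ighv1-69, Ighv1-64, Ighv1-2, Ighv1-34, Ighv1-74 and Ighv1-52. Other arrays had their own: Igkv5-39 measured 3.39 in HFD array 2, and 0.66 to 2.06 elsewhere.

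**Figure D3:**
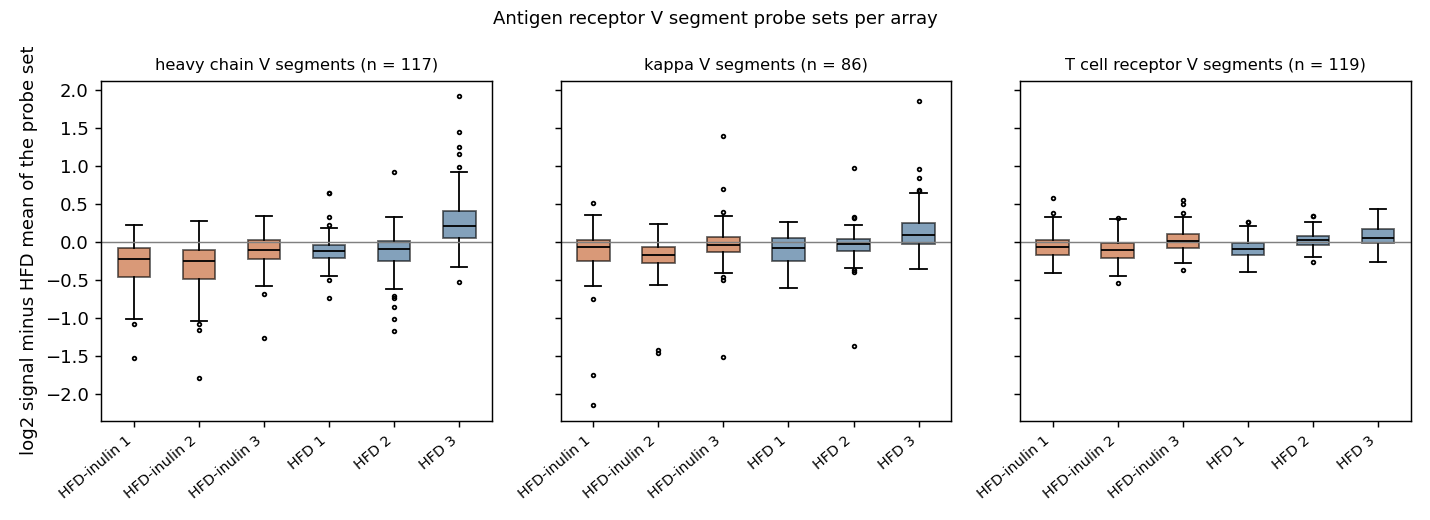
Log2 signal minus the HFD mean of the same probe set (vertical axis) per array for heavy chain, kappa and T cell receptor V segments; boxes give the quartiles, whiskers reach 1.5 box lengths and points lie beyond. The heavy chain box of HFD 3 lies above those of the other 5 arrays, and its mean is 0.26, where HFD-inulin 1 and 2 have -0.29 and -0.32.

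Ighg2b and Ighg1, constant regions of IgG from the plasma cell list below, were also highest in HFD array 3. They are picked examples, since Ighg2b was named after its values were seen. Of the 12 measured genes of that list, 4 were highest in that array. Ighg2b measured 1.89, 1.86 and 1.94 against 1.88, 1.74 and 2.52. HFD array 3 alone was high, and the difference of -0.15 (limma adjusted p = 0.944) did not pass. Ighg1 had a difference of -0.11 (limma adjusted p = 0.909). The 4 probe sets that list Ighm with a second symbol did not follow Ighm, with differences from -0.04 to 0.22. The brightest of them measured 3.47, 3.25 and 3.67 against 3.42, 3.52 and 3.49.

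Other genes of the lineages came from lists chosen with earlier results known. Of 20 further B cell genes measured, 0 passed the test and 16 had a lower mean in HFD-inulin, with a median difference of -0.05. Pou2af1, a coactivator of immunoglobulin genes, measured 2.24, 2.25 and 2.57 against 2.47, 2.53 and 2.66. Only HFD-inulin arrays 1 and 2 lay apart there (difference -0.20, limma adjusted p = 0.902). Cxcr5, the receptor that leads B cells to follicles, was lower in all HFD-inulin arrays (-0.12, limma adjusted p = 0.902). Groups did not overlap in that direction in 1 of the 20, against 6.02% of all probe sets. Of the 20, 5 were highest in HFD array 3.

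The plasma cell list had 12 measured genes, 6 lower and 6 higher, 0 past the test, and a median difference of less than 0.01 in size. The list is not one of plasma cells alone, since hepatocytes also express Xbp1, and epithelial cells such as those of bile ducts express Pigr. Xbp1, a factor of the secretory stress response, and Derl3, of protein disposal from the endoplasmic reticulum, were high in HFD-inulin array 2, at 7.41 and 6.03. In the other 5 arrays they measured 6.06 to 6.41 and 2.61 to 3.71. Mzb1, which assists immunoglobulin assembly in plasma and marginal zone B cells, lay between 1.58 and 1.78 in all 6 arrays. Pigr, the transporter of IgA and IgM across epithelia, measured 8.13, 8.17 and 8.97 against 8.84, 8.99 and 8.82 (difference -0.46, limma adjusted p = 0.902).

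Of 19 further T cell genes, 12 had a lower mean in HFD-inulin and 0 passed, with a median of -0.03. Ccr7, the homing receptor of naive T cells, had means of 2.11 ± 0.31 and 2.41 ± 0.03 (SD, n = 3; difference -0.30, limma adjusted p = 0.902). HFD-inulin array 3, at 2.46, lay with the HFD arrays. Zap70, the kinase of the T cell receptor, ranged only from 2.58 to 2.67. Of 21 natural killer and cytotoxic genes, 14 were lower and 0 passed, with a median of -0.02, and 10 lay below the median probe set. Tbx21, the factor T-bet, measured 2.25, 2.21 and 2.49 against 2.41, 2.42 and 2.47 (difference -0.12, limma adjusted p = 0.910). Ccl5, a chemokine of cytotoxic cells, lay between 2.71 and 3.08.

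Chemokines and receptors of lymphocyte traffic had lower means in HFD-inulin in 11 of 12 cases (median -0.15), and 0 passed the adjusted test. Cxcl16, the ligand that retains natural killer T cells in liver sinusoids, measured 2.74, 2.71 and 2.76 against 2.92, 2.90 and 2.93. All HFD-inulin arrays lay below all HFD arrays, with a difference of -0.18 (SE 0.06, limma adjusted p = 0.902). Groups did not overlap in that direction in 3 of the 12, against 6.02% of all probe sets, and in 0 in the other. Cxcl16 alone of the 12 had an unadjusted limma p under 0.05, as 2.64% of all probe sets did in that direction. Cxcl9, an interferon-induced attractant of T cells, ranged widely, at 3.30, 2.06 and 4.59 against 4.35, 3.56 and 4.25. Cxcl13, which attracts B cells, measured 2.64, 4.30 and 2.45 against 2.49, 4.39 and 4.05. It was thus low in HFD array 1 and high in HFD-inulin array 2, unlike Ighm.

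Markers of all leukocytes and of other liver cells moved as follows beside the members, and their part in the member values was not tested. Of 8 pan-leukocyte genes, 7 had a lower mean in HFD-inulin, and their median difference was -0.12. Ptprc, which encodes CD45, measured 1.86, 1.89 and 2.09 against 2.20, 2.13 and 2.21 (difference -0.24, limma adjusted p = 0.902), and 6 of the 8 were highest in HFD array 3. The summed log2 level of the 8 ran from 20.7 to 21.6 in HFD-inulin and from 21.4 to 22.5 in HFD. Of 12 Kupffer cell and macrophage markers, 10 had lower means, and their median was -0.14. Their sum ran from 59.3 to 61.4 and from 61.2 to 63.0, and 0 of the 12 lay below the median probe set. Ptprc and Laptm5 of the 8, and Adgre1 and Timd4 of the 12, were lower at an unadjusted limma p under 0.05. That held for 2.64% of all probe sets. Groups did not overlap, lower in HFD-inulin, in 3 of the 8 and 2 of the 12, against 6.02%. In the other direction both counts were 0.

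Of 12 neutrophil markers, 7 had lower means, and their median was -0.02, near that of all probe sets. One array stood apart: S100a8, a granule protein gene, measured 2.33 in HFD-inulin array 2 and 0.50 to 0.91 in the other arrays. The summed level was 16.2 to 19.5 in HFD-inulin and 15.9 to 16.8 in HFD, and 4 of the 12 lay below the median probe set. HFD-inulin array 2 alone gave the sum of 19.5.

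Of 7 hepatocyte markers, 5 had lower means in HFD-inulin, with sums of 68.7 to 69.6 against 70.5 to 71.0. Their median difference, -0.17, was larger in size than the members' -0.11. Apob, Hnf4a and Cps1 had an unadjusted limma p under 0.05, as 2.64% of all probe sets did in that direction. Groups did not overlap, lower in HFD-inulin, in 3 of the 7, against 6.02% of all probe sets. The median differences of the remaining lists were -0.07 for 8 sinusoidal endothelial, 0.06 for 7 stellate, 0.06 for 4 cholangiocyte, -0.06 for 7 dendritic cell and -0.04 for 2 erythroid markers. The mean of the cholangiocyte markers was 2.62 in HFD-inulin array 2, the array in which S100a8, Xbp1 and Derl3 were high, and 2.08 to 2.25 in the other 5. None of these genes passed the adjusted test.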

How the data were processed

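Each array has a column of log2 signal deposited by the authors, for which the submitters' processing notes name Affymetrix Expression Console 1.0. How probes were summarized and background removed, and on which build, is not given in the sources used here. Base 2 is an assumption resting on the range of the values, whose array medians are 1.17 to 1.26. Gene names came from the platform annotation, updated with RefSeq (GRCm38.p6): 31258 probe sets had 1 gene name and 1492 several. Differences are HFD-inulin minus HFD, from a two-sided limma test (version 3.58.1, R 4.3.3; functions lmFit, eBayes) on all 6 arrays and 65956 probe sets, with no filter and no covariate. The fit was tested on simulated data with planted changes. Precision is limited by having 3 arrays in each group.

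The members and lists were chosen with earlier results of these data known. Named genes are the 9 members, up to 4 genes per list by smallest p and 4 by highest mean, and the 3 genes nearest in pattern to each of the 3 members with the largest SD; Mzb1, Ighg2b and the V segments were named after their values were seen. Alternatives were another variance prior, ordinary least squares, a filter on dim probe sets, 2 normalizations, array weights, a replicate block, the split of arrays, each array left out and a threshold of 0.01. Those for V segment medians, member counts and medians and the shared Ighm probe set were added after seeing the data. The labels pair no animals.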

Additional observations from a re-analysis of the deposited data

How the results depend on the processing

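In limma the members with an adjusted p under 0.05 numbered 0 under every alternative run. Of the alternative values of single members, 136 kept their sign and side of the threshold and 7 changed sign. The other variance prior, ordinary least squares, the filter and the replicate block leave each member's difference unchanged, so no sign could turn there. The shared Ighm probe set, at -0.02 against -1.02, counts among the 136. Within the low-signal arrays Cd3e turned to 0.0713 and the T cell receptor segments' median to 0.0120; within the high-signal arrays Cd79a turned to 0.0045, Cd79b to 0.0274, Cd8a to -0.0138 and Gzma to 0.0276. Without single arrays, Cd3e ran from -0.0944 to 0.0511 and Cd8a from -0.0325 to 0.106. Members with a lower mean in HFD-inulin numbered 7 to 9 without single arrays, 7 within the low-signal and 6 within the high-signal arrays. Members with an unadjusted p under 0.05 numbered 0 to 2 without single arrays (2 without HFD array 2), 2 within the low-signal arrays and 1 with the replicate block, which is Ighm (SE 0.21, limma adjusted p = 0.876). Same-numbered arrays deviated together in pairs 1 and 3 (r = 0.261 and 0.404) and not in pair 2 (-0.278). The arrays of pair 1 are both low-signal and those of pair 3 both high-signal, while those of pair 2 differ. These correlations therefore cannot decide on pairing. The numbers were not read as pairs, since the labels pair no animals. Over all probe sets, a trended and robust prior called 4, while unadjusted calls, 3399 in all, were 1873 among brighter probe sets, 451 at p under 0.01, and 2100 to 6525 without single arrays. Leaving out each array in turn gave 0 adjusted calls. Each member has 1 probe set, so other choices of probe set were not run, except for Ighm, where the brightest shared probe set gave -0.02. Signal near background limits Ms4a1 and Jchain most, while Gzma, with a mean of 1.25, lay just above the median probe set, 1.22. Only 1 of the 9 members, Ighm, reached the 75th percentile of probe set means. The causes were not tested.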
